A study of Saccharomyces cerevisiae with 21 samples.

Results

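The 10 genes described here carry out gluconeogenesis, the glyoxylate cycle and the uptake and activation of acetate and other small acids in budding yeast. They were taken by name from the 6600 yeast features that were counted, and their levels were followed over strains, conditions and cell fractions: PCK1 (YKR097W), FBP1 (YLR377C), ICL1 (YER065C), MLS1 (YNL117W), MDH2 (YOL126C), CIT2 (YCR005C), ACS1 (YAL054C), ADY2 (YCR010C), JEN1 (YKL217W) and SFC1 (YJR095W). Poly(A) RNA was sequenced in 21 libraries to compare unstressed with glucose-starved cells and wild type with mutant forms of Nab2, a nuclear protein that binds poly(A) RNA and takes part in poly(A) tail length control and mRNA export. All strains are of the BY4742 background (MAT alpha, his3Δ1, leu2Δ0, lys2Δ0, ura3Δ0), and all 3 carry NAB2 at its own locus fused to a green fluorescent protein and a HISMX marker, so that the control strain is tagged as well. Its allele is NAB2-yEGFP. The IDR mutant carries NAB2-ΔQQQP-ΔRGG(Δ104-263)-SV40NLS-yEGFP, which lacks residues 104 to 263 and has an added nuclear localization signal from SV40. The interface mutant carries the substitution F450A with a tag labelled GFP rather than yEGFP. Unstressed cells grew to mid-log phase in synthetic complete medium that held 2% glucose. Starved cells came from such cultures, were washed 3 times and stayed for 24 h in medium lacking glucose. Whole cell RNA was sequenced in 2 libraries of each strain in each condition, and RNA of nuclear extracts in 3 libraries of each strain, from starved cells alone. The labels do not say that replicates came from separate cultures or clones, so the p-values reflect how far these libraries vary among themselves, and that variation may be technical.

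Yeast grown on glucose ferments it and keeps most of these genes repressed. When glucose is absent, cells that use acetate, ethanol or lactate build sugar phosphates by running glycolysis backwards: the glyoxylate cycle makes dicarboxylic acids from acetyl-CoA, phosphoenolpyruvate carboxykinase draws phosphoenolpyruvate out of oxaloacetate, and fructose-1,6-bisphosphatase bypasses phosphofructokinase. The kinase Snf1 relieves the repression exerted by Mig1, and the zinc cluster activators Cat8 and Sip4 bind carbon source-responsive elements in the promoters of many of the genes.

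The promoters are shown because those elements are what many of these genes are known to share, and the selection of the genes by name did not use sequence. In assembly R64 of strain S288C, from RefSeq, the 10 genes lie at the positions given in the count files, and the 600 bases before each start codon were searched on both strands. The fixed letters of the carbon source-responsive element (CC, 2 free positions, T, 3 free positions, CCG) were found before 7 of the 10 genes, all but FBP1, CIT2 and JEN1, against 514 of 5866 promoters of all matched genes (8.76%). The letters GCGGGG or GTGGGG, a form of the Mig1 site, stood before FBP1 and ADY2 and before 981 of the 5866 (16.7%), and no match of one motif overlapped a match of the other. A match is a description of these letters and not of binding. The stretches that hold the matches are printed 5′ to 3′ on the gene's strand, with the letters that match this element or its reverse complement, free positions included, in capitals. They come from chrXI:630570-630820 (plus strand) for PCK1, chrV:287282-287332 (minus) for ICL1, chrXIV:405807-405930 (plus) for MLS1, chrXV:83267-83373 (minus) for MDH2, chrI:45363-45467 (minus) for ACS1, chrIII:133573-133655 (minus) for ADY2 and chrX:609173-609312 (plus) for SFC1.
PCK1: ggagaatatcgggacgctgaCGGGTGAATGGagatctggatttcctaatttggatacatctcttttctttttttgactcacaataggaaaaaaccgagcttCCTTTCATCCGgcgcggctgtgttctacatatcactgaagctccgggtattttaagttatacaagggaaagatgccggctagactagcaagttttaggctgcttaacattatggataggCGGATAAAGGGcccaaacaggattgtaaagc
ICL1: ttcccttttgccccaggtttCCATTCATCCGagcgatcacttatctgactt
MLS1: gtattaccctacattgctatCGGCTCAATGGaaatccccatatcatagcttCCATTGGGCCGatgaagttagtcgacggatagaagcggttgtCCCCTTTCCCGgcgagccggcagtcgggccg
MDH2: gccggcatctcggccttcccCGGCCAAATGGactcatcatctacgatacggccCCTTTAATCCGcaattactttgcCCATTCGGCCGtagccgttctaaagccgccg
ACS1: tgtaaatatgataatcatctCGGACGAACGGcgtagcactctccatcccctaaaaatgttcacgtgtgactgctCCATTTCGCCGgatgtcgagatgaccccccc
ADY2: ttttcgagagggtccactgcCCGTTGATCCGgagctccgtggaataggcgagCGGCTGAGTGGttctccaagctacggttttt
SFC1: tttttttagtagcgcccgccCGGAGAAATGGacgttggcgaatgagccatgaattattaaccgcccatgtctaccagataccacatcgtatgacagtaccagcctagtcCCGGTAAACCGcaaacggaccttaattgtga
PCK1, MLS1 and MDH2 each showed 3 such matches, ACS1, ADY2 and SFC1 2 each, and ICL1 a single one.

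The whole cell libraries held 4815254 to 14069868 counts. Of the 9 nuclear libraries, 7 held 6353585 to 23138938 yeast counts, and the third replicates of wild type and of the interface mutant were nearly empty, with 1079 and 3981 counts: in each of these, 5 of the 10 genes had no count, so their nuclear levels are not given below and the fits leave both libraries out. NAB2 was counted over the whole gene, and its level cannot check a deletion of part of it or a substitution. In unstressed libraries it stood at 49.8 and 201 CPM (wild type), 205 and 225 (IDR mutant) and 254 and 208 (interface mutant), and in starved ones at 370.4 and 380.0, 133 and 123 and 234 and 356, in the same order. CPM scales counts to 1e6 yeast counts of a library. LEU2, LYS2 and URA3, deleted in the parent, had at most 5 counts in any library with enough depth, HIS3 had 43 to 752, and the 4 markers of alpha cells summed to 980.9 to 6841 CPM in whole cells against 28.4 to 91.9 for the 5 markers of a cells. Unstressed wild type replicates 1 and 2 stood far apart (chi-square per degree of freedom 345, against 3.03 to 43.9 in the other whole cell pairs), and replicate 1 was the one outside the other unstressed libraries of all strains, with 563 CPM of CIT2 against 259 to 276 and 49.8 CPM of NAB2 against 201 to 254. Among the nuclear libraries, a score over 603 genes higher and 577 lower when whole cells of the starved IDR mutant are set against the interface mutant, without the 10 genes and NAB2, was -0.46, -0.62 and 0.70 in the IDR mutant libraries, 0.60 and -0.10 in the interface mutant libraries, and -0.62 and -0.08 in wild type. IDR mutant replicates 1 and 2 thus lay near the wild type libraries and interface mutant replicate 1 near IDR mutant replicate 3. Nuclear directions are those of the library labels.

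Starvation raised nearly the whole group in wild type cells. In edgeR's quasi-likelihood test with Benjamini-Hochberg adjustment over 5853 genes and a threshold of 0.05, 9 of the 10 genes rose, against 31.7% of all genes tested, and 0 fell, against 34.5%. The median log2 fold change of the 10 genes was 3.85, beside -0.05 for all genes. The rises ran from 2.22-fold for MDH2 to 146-fold for ADY2. In bulk RNA, more cells expressing a gene and more RNA per cell cannot be told apart, and levels are relative to all counted RNA.

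ADY2 and JEN1, the transporters of the plasma membrane, changed most. ADY2, the acetate permease, stood at 3.62 and 4.57 CPM in the unstressed and 611 and 604 CPM in the starved wild type libraries, a log2 fold change of 7.19 ± 0.20 (SE; edgeR adjusted p = 5.74e-08). JEN1, a proton symporter for lactate and pyruvate, went from 10.2 and 6.36 CPM to 731 and 756 CPM, or by 6.38 ± 0.36 on the log2 scale (edgeR adjusted p = 8.06e-07). Starved libraries were far above unstressed ones and close to each other for both transporters. SFC1, the carrier that exchanges cytosolic succinate for mitochondrial fumarate, was far less abundant, at 2.91 and 1.69 CPM before and 37.0 and 47.8 CPM after starvation, and rose by 4.08 ± 0.34 (edgeR adjusted p = 1.02e-05).

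ACS1, the acetyl-CoA synthetase that activates acetate and is repressed by glucose, rose by 3.63 ± 0.27 on the log2 scale (edgeR adjusted p = 5.24e-06), from 8.46 and 10.8 CPM to 120.4 and 121 CPM. The enzymes particular to the glyoxylate cycle rose with it. ICL1, isocitrate lyase, was measured at 13.1 and 20.9 CPM in unstressed and 139 and 150.1 CPM in starved wild type, a rise of 3.10 ± 0.16 (edgeR adjusted p = 6.18e-07). MLS1, malate synthase, went from 3.13 and 3.68 CPM to 60.6 and 76.8 CPM and rose by 4.30 ± 0.23 (edgeR adjusted p = 6.22e-07). Every starved library lay above both unstressed ones for these 3 genes.

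The steps shared with other routes started high and changed least. MDH2, the cytosolic malate dehydrogenase, was at 78.5 and 149 CPM in unstressed and 242 and 251 CPM in starved wild type and rose by 1.15 ± 0.20 on the log2 scale (edgeR adjusted p = 0.000879). CIT2, the peroxisomal citrate synthase and a classic target of retrograde signalling from mitochondria, was at 563 and 272 CPM against 848 and 871 CPM; its log2 fold change of 0.90 ± 0.39 did not pass (edgeR adjusted p = 0.0665). The unstressed values of both genes were wide apart: replicate 1, the library that stands apart, was the high one for CIT2 and the low one for MDH2. Without it the log2 fold change of CIT2 was 1.90 and passed, so that 10 genes rose; without replicate 2 it was 0.31 and did not.

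The gluconeogenic enzymes proper were scarce before starvation. PCK1, phosphoenolpyruvate carboxykinase, was at 4.62 and 3.38 CPM unstressed and 72.0 and 80.8 CPM starved, a rise of 4.16 ± 0.33 on the log2 scale (edgeR adjusted p = 7.03e-06). FBP1, fructose-1,6-bisphosphatase, had 2.84 and 1.69 CPM and 25.8 and 30.1 CPM and rose by 3.50 ± 0.39 (edgeR adjusted p = 5.26e-05). Groups did not overlap for either gene, nor for any other of the 10 in any strain; among all genes, every starved library was above every unstressed one for 35.8% (wild type), 34.7% (IDR mutant) and 30.7% (interface mutant), and below for 38.3%, 56.6% and 55.0%.

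**Figure D1:**
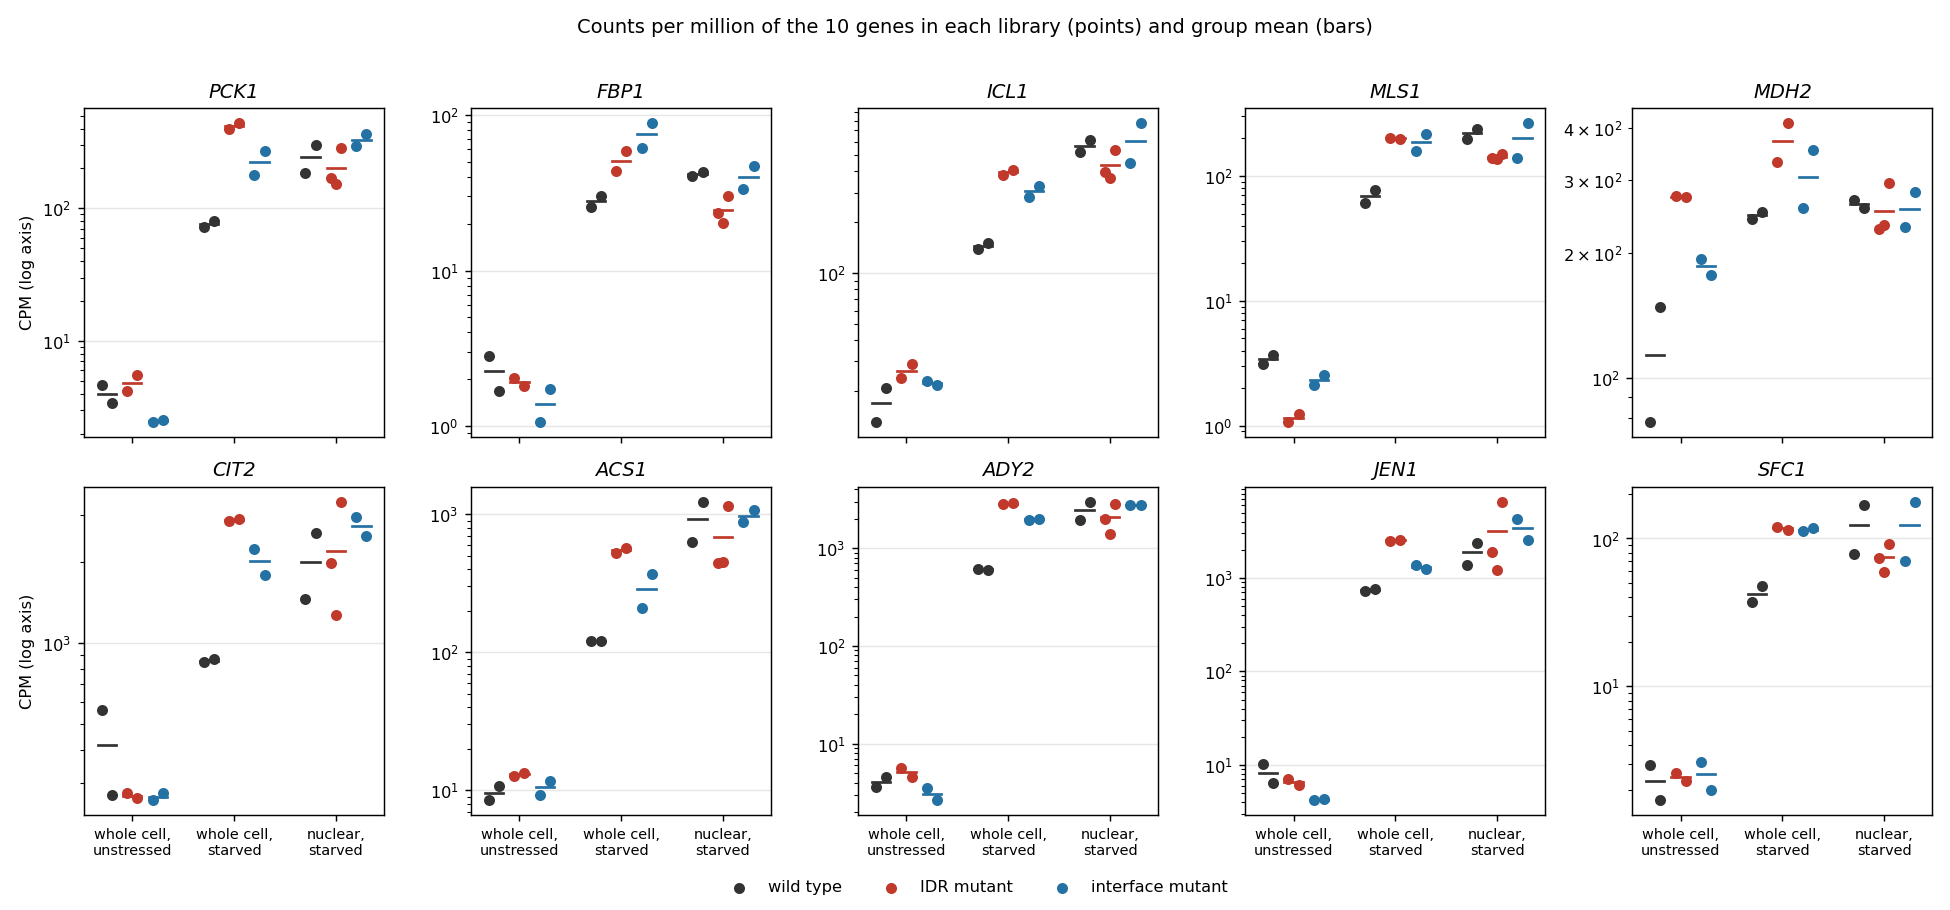
CPM of each of the 10 genes (log axis) in unstressed whole cells, starved whole cells and starved nuclear extracts, with 1 point per library, a bar at the group mean and the strain in colour; the 2 nearly empty nuclear libraries are left out. Starved whole cells lie above unstressed ones of the same strain for every gene, and starved mutant whole cells above starved wild type whole cells.

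Per kilobase of gene, which allows levels of different genes to be set side by side, unstressed wild type was led by CIT2 at 302 ± 149 CPM per kb (mean ± SD, n = 2) and MDH2 at 100.2 ± 43.8, followed by ICL1 at 10.2 ± 3.26. ADY2, ACS1 and JEN1 followed without separation, at 4.81 ± 0.785, 4.50 ± 0.783 and 4.46 ± 1.45 CPM per kb, and PCK1, SFC1, FBP1 and MLS1 were lowest, between 2.04 and 2.42, their neighbours overlapping. After starvation ADY2 led at 713 ± 5.76 CPM per kb, ahead of CIT2 at 621 ± 11.9, JEN1 at 401 ± 9.44 and MDH2 at 218 ± 5.70. Below them came ICL1 at 86.5 ± 4.50 and ACS1 at 56.4 ± 0.278 CPM per kb. PCK1, SFC1 and MLS1, between 41.3 and 46.3, did not separate from each neighbour, and FBP1 was last at 26.7 ± 2.94. ADY2, CIT2, JEN1 and MDH2 held the first 4 places, in that order, in the starved whole cells of both mutants too. In nuclear extracts ADY2 had the highest mean in each strain, at 2906 ± 841 CPM per kb in wild type, though its range overlapped those of JEN1 and CIT2 in the IDR mutant. ACS1 and ICL1 stood above MDH2 in the mean, and FBP1 stayed last, at 40.0 ± 1.94 in wild type.

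Together the 10 genes took 0.0474% to 0.069% of the counts of unstressed whole cell libraries. After starvation their share was 0.289% and 0.299% (wild type), 1.01% and 1.06% (IDR mutant) and 0.684% and 0.678% (interface mutant). The make-up of this sum turned over: CIT2 and MDH2 made 88.8% to 92.9% of it in the 6 unstressed libraries and 31.3% to 37.7% in the 6 starved ones, while ADY2 and JEN1 went from 1.39% to 2.31% of it to 45.5% to 52.3%. In the 7 nuclear libraries of usable depth ADY2 and JEN1 made 49.3% to 61.4%.

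**Figure D2:**
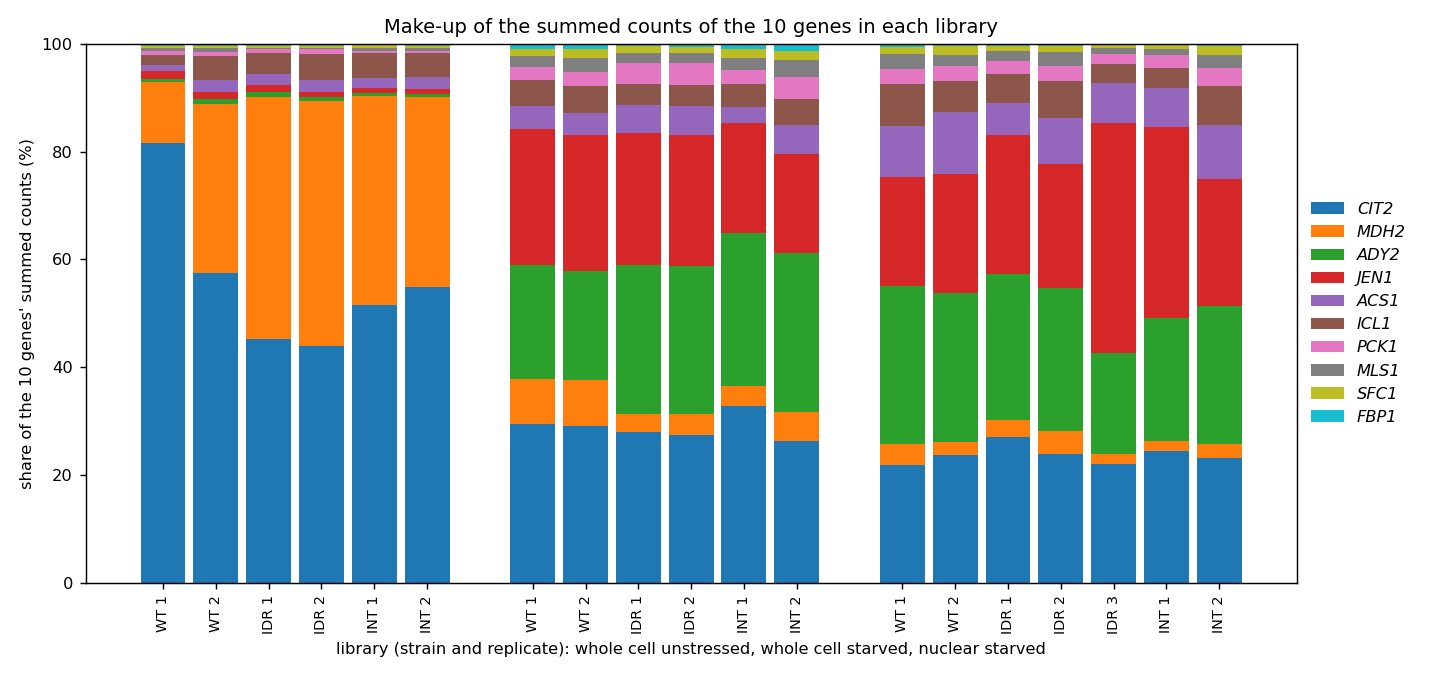
Share of each gene in the summed counts of the 10 genes (%), with 1 bar per library, in unstressed whole cells, starved whole cells and starved nuclear extracts (WT, wild type; IDR, IDR mutant; INT, interface mutant). CIT2 and MDH2 fill 88.8% to 92.9% of each unstressed bar, and ADY2 and JEN1 45.5% to 61.4% of each starved bar.

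In unstressed cells the mutants differed from wild type in few of the genes. The IDR mutant passed the test for MLS1, which was lower, and MDH2, which was higher, against 0.547% of all genes lower and 1.13% higher. MLS1 was at 1.08 and 1.23 CPM against 3.13 and 3.68 in wild type, a log2 difference of -1.79 ± 0.28 (edgeR adjusted p = 0.0225). MDH2 was at 274 and 274 CPM against 78.5 and 149, a difference of 1.08 ± 0.20 (edgeR adjusted p = 0.0349). These groups did not overlap for either gene, nor for ICL1 and ACS1, which were above wild type without passing; among all genes, 33.7% were higher and 21.7% lower without overlap. Neither call held without wild type replicate 1 or without either IDR mutant library. The number called ranged widely with the library left out, among all genes as well, and each such fit leaves a single library in a group.

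In the unstressed interface mutant edgeR called 0 of the 10 genes and 0.0% of all genes, although 6 of the 10 and 1422 of 5853 genes had an unadjusted p under 0.05, and DESeq2 called 1 of the 10 and 100 genes. PCK1 was at 2.46 and 2.54 CPM against 4.62 and 3.38 in wild type, and JEN1 at 4.16 and 4.35 against 10.2 and 6.36. Both mutant libraries were below both wild type libraries for PCK1, MLS1, ADY2 and JEN1 and above them for ICL1 and MDH2, where 16.7% of all genes were lower and 32.5% higher without overlap. The number of the 10 genes that passed depended on which wild type replicate was kept. Among all genes the number also ranged widely with the library left out, and each such fit leaves a single library in a group.

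Starvation raised all 10 genes in both mutants. Of all genes, 33.0% rose and 34.3% fell in the IDR mutant, and 29.7% and 30.3% did so for the interface mutant. The median log2 fold change of the 10 genes was 5.88 (IDR mutant) and 5.96 (interface mutant), beside -0.05 for all genes in both. ADY2 went from 5.70 and 4.55 CPM to 2819 and 2906 CPM in the IDR mutant, 735-fold, and from 3.52 and 2.63 CPM to 1946 and 2012 CPM in the interface mutant, 825-fold. JEN1 rose 501-fold and 394-fold. MDH2 was again the smallest rise, by 0.84 ± 0.20 (IDR mutant) and 1.08 ± 0.20 (interface mutant) on the log2 scale (edgeR adjusted p = 0.00467 and 0.00141).

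CIT2, which did not pass in wild type, passed as higher in both mutants. It went from 275 and 264 CPM to 2839.8 and 2893 CPM in the IDR mutant (3.81 ± 0.43, edgeR adjusted p = 4.57e-05) and from 259 and 276 CPM to 2242 and 1787 CPM in the interface mutant (3.27 ± 0.42, edgeR adjusted p = 0.00014). PCK1 rose by 6.82 ± 0.36 and 6.84 ± 0.37, and MLS1 by 7.81 ± 0.27 and 6.67 ± 0.25, in the IDR and interface mutants in that order. These comparisons and those of wild type share no library.

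**Figure D3:**
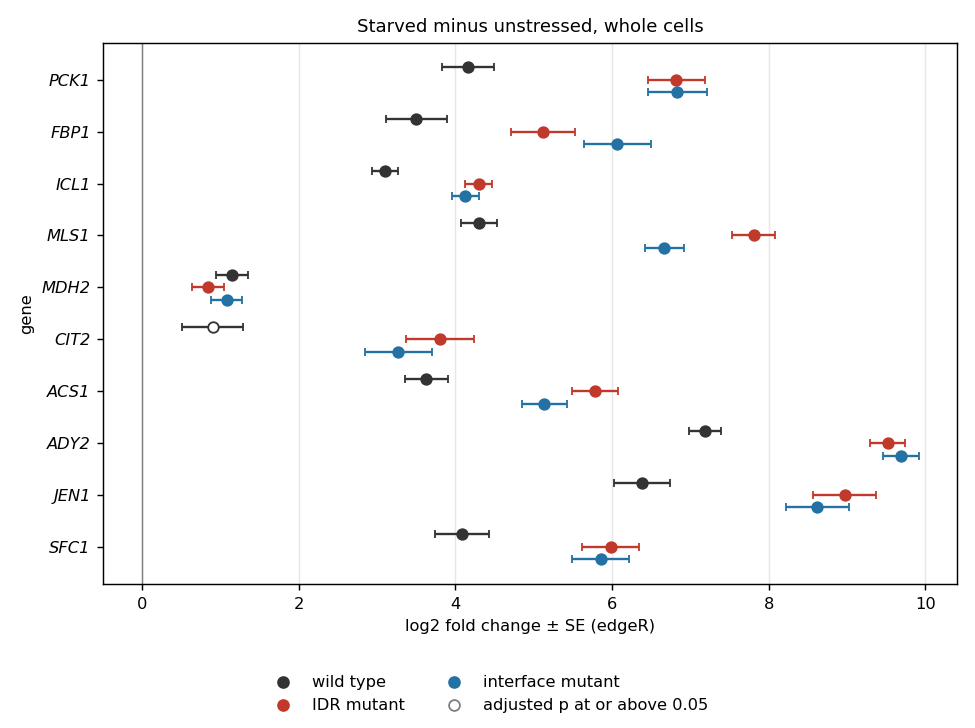
Log2 fold change of each gene between starved and unstressed whole cells (x axis), by strain, with the SE of edgeR's fit as bars and open symbols where the adjusted p is at or above 0.05. The points of both mutants lie to the right of wild type for every gene but MDH2, and CIT2 in wild type is the single open symbol.

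Whether the response itself differed between strains was tested as an interaction in the same fit. Compared with wild type, the response of the IDR mutant was larger for 8 of the 10 genes, against 6.24% of all genes, and smaller for 0, against 5.5%. The difference was largest for MLS1, at 3.51 ± 0.34 on the log2 scale (edgeR adjusted p = 0.00394), where the IDR mutant was both lower before and higher after starvation. Its level before starvation was low, at 1.08 and 1.23 CPM, and the call as lower there depended on the libraries kept. CIT2 differed by 2.91 ± 0.56, PCK1 by 2.66 ± 0.44, JEN1 by 2.59 ± 0.43 and ADY2 by 2.33 ± 0.24 (edgeR adjusted p = 0.0139, 0.00957, 0.00955 and 0.00394). ACS1, SFC1 and ICL1 differed in their response by 2.16 ± 0.36, 1.90 ± 0.48 and 1.20 ± 0.22 (edgeR adjusted p = 0.00964, 0.0373 and 0.011).

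FBP1 (1.61 ± 0.56, edgeR adjusted p = 0.09) and MDH2 (-0.31 ± 0.28, edgeR adjusted p = 0.481) did not pass. MLS1 and ADY2 passed in each of the 13 alternatives computed, and SFC1 in 4. Most of the calls were lost without any one of starved wild type replicate 1 or 2, unstressed IDR mutant replicate 1 or 2 or starved IDR mutant replicate 2. Leaving out any other library changed the number less. Among all genes the number also ranged widely, and each such fit leaves a single library in a group.

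For the interface mutant ADY2 was the single gene of all 5853 whose response passed (0.0171% of genes), at 2.50 ± 0.25 (edgeR adjusted p = 0.0162). The estimates for PCK1, MLS1 and CIT2 were 2.67 ± 0.46, 2.37 ± 0.32 and 2.37 ± 0.56, with edgeR adjusted p of 0.099, 0.0698 and 0.215. An unadjusted p under 0.05 was reached by 9 of the 10 genes and by 1138 genes in all, and DESeq2 called 9 of the 10 and 156 genes. The call of ADY2 was lost when either starved wild type library, either unstressed interface mutant library or starved interface mutant replicate 2 was left out. More of the 10 genes passed without either unstressed wild type library or starved interface mutant replicate 1. Among all genes the number also ranged widely, and each such fit leaves a single library in a group.

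Among starved whole cells, the IDR mutant exceeded wild type for all 10 genes, against 15.9% of all genes higher and 13.3% lower, and their libraries did not overlap for any of the 10, where 30.6% of all genes were higher and 50.0% lower without overlap. Their median log2 difference was 1.82, beside 0.00 for all genes. PCK1 differed most, with 397 and 438 CPM against 72.0 and 80.8 CPM in wild type, 2.63 ± 0.29 on the log2 scale or 6.20-fold (edgeR adjusted p = 0.000442). ADY2 followed, at 2819 and 2906 CPM against 611 and 604, a difference of 2.42 ± 0.16 (edgeR adjusted p = 7.67e-05).

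ACS1 was at 528 and 567 CPM in the IDR mutant against 120.4 and 121, a difference of 2.36 ± 0.25 (edgeR adjusted p = 0.000428). JEN1 was at 2489 and 2563 CPM against 731 and 756, and CIT2 at 2839.8 and 2893 against 848 and 871, differences of 1.95 ± 0.29 and 1.92 ± 0.40 (edgeR adjusted p = 0.00154 and 0.00701). The replicates of each strain were close, and the gap between strains was many times theirs. MLS1, SFC1 and ICL1 differed by 1.72 ± 0.19, 1.65 ± 0.29 and 1.63 ± 0.15 (edgeR adjusted p = 0.000457, 0.00317 and 0.000251). FBP1 and MDH2 showed the smallest differences, 1.05 ± 0.33 and 0.77 ± 0.20 (edgeR adjusted p = 0.0399 and 0.0188). NAB2 itself was lower in this comparison (-1.37 ± 0.39, edgeR adjusted p = 0.0278). All 5 markers of a cells also passed as higher, with a sum of 83.5 to 91.9 CPM in the IDR mutant against 28.8 to 35.1 in wild type, where the alpha cell markers summed to 980.9 to 1000.1 and 1363 to 1389.6 CPM; none of the 9 markers was at 0, and their part in the differences of the 10 genes was not tested. Leaving out 1 library lowered the number called, among all genes as well, and each such fit leaves a single library in a group.

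In the interface mutant, compared with the same wild type libraries, fewer genes passed. All 10 genes were higher in both of its starved libraries than in both of wild type, where 17.5% of all genes were (and 37.2% lower), and 4 passed the test, against 0.41% of all genes higher and 0.0683% lower: ADY2, MLS1, ICL1 and PCK1. ADY2 was at 1946 and 2012 CPM against 611 and 604, a difference of 1.81 ± 0.16 (edgeR adjusted p = 0.0046), and MLS1 at 159.6 and 215 against 60.6 and 76.8, a difference of 1.55 ± 0.19 (edgeR adjusted p = 0.0147). ICL1 was at 284 and 328 CPM against 139 and 150.1 and PCK1 at 179 and 269.7 against 72.0 and 80.8, differences of 1.18 ± 0.15 and 1.66 ± 0.28 (edgeR adjusted p = 0.0155 and 0.0489). The interface mutant libraries were wide apart for PCK1, whose adjusted p was just under the threshold.

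SFC1, FBP1 and ACS1 had estimates of 1.54 ± 0.29, 1.53 ± 0.33 and 1.36 ± 0.25 without passing (edgeR adjusted p = 0.0588, 0.0947 and 0.0551), and CIT2, JEN1 and MDH2 had 1.33 ± 0.39, 0.93 ± 0.28 and 0.41 ± 0.20 (edgeR adjusted p = 0.206, 0.227 and 0.524). The number called fell without either starved wild type library or interface mutant replicate 2 and rose without interface mutant replicate 1. It ranged widely among all genes as well, and each such fit leaves a single library in a group. DESeq2 called 9 of the 10, and more of all genes than edgeR did.

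**Figure D4:**
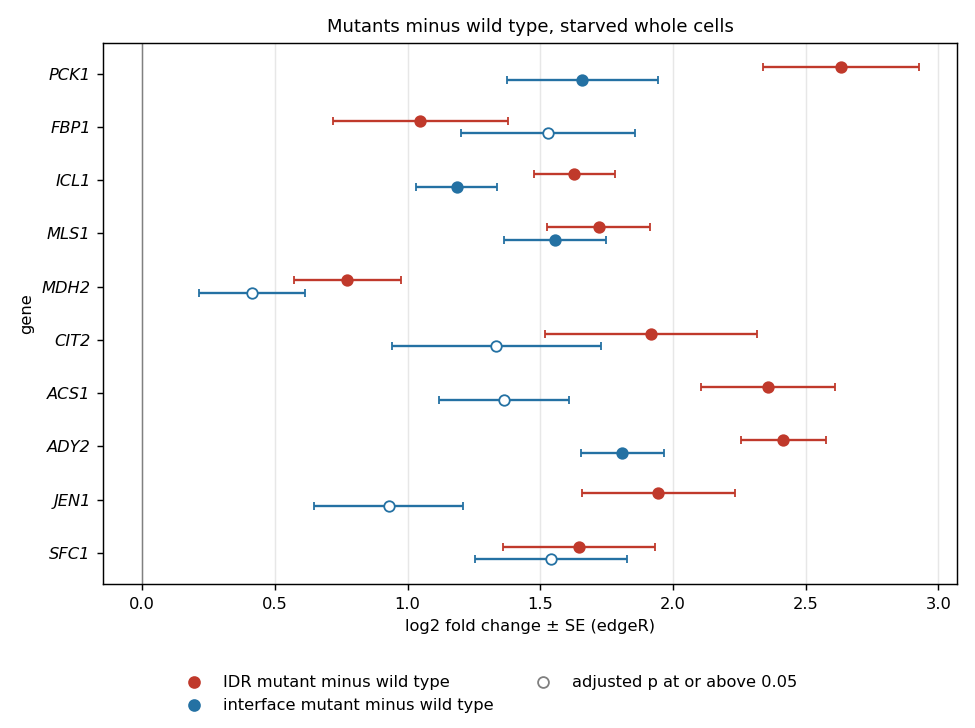
Log2 difference of each gene between each mutant and wild type in starved whole cells (x axis), with the SE of edgeR's fit as bars and open symbols where the adjusted p is at or above 0.05. All 20 points lie above 0; all 10 IDR mutant symbols and the interface mutant symbols of PCK1, ICL1, MLS1 and ADY2 are filled.

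Directly compared with the starved interface mutant, the starved IDR mutant was higher for JEN1 (1.02 ± 0.28, edgeR adjusted p = 0.0338), ACS1 (1.00 ± 0.24, edgeR adjusted p = 0.0207), PCK1 (0.97 ± 0.28, edgeR adjusted p = 0.0369) and ADY2 (0.61 ± 0.15, edgeR adjusted p = 0.023), against 10.4% of all genes higher and 9.86% lower. JEN1 was at 2489 and 2563 CPM against 1389 and 1240.0 CPM. FBP1 went the other way without passing, at 43.4 and 58.2 CPM against 61.4 and 88.4 CPM (-0.48 ± 0.32, edgeR adjusted p = 0.312). PCK1, ICL1, CIT2, ACS1, ADY2 and JEN1 were higher and FBP1 lower without overlap, where 31.4% of all genes were higher and 37.8% lower. The interface mutant pair was the more spread (chi-square per degree of freedom 43.9, against 6.33 in the IDR mutant). Fewer of the 10 genes, and fewer of all genes, passed when any of these libraries was left out, which leaves a single one in a group.

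In nuclear extracts of starved cells the strains were not separated. For either mutant against wild type edgeR called 0 of the 10 genes and 0.0% of 6086 genes; 258 genes (IDR mutant) and 177 genes (interface mutant) had an unadjusted p under 0.05, 0 of the 10 genes among them, and DESeq2 called 12 and 14 genes, again with 0 of the 10. PCK1 was at 184 and 300.3 CPM in the wild type, 169, 152 and 284 CPM in the IDR mutant and 295 and 363 CPM in the interface mutant libraries. ADY2 was at 1969 and 2982 CPM, 1985, 1410.5 and 2851 CPM and 2746 and 2765 CPM in the same order. Each mutant's range overlapped that of wild type for both genes, while for PCK1 the interface mutant libraries lay above those of the IDR mutant.

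JEN1 varied most, at 1362 and 2383 CPM in wild type, 1882, 1224 and 6513 CPM among IDR mutant libraries and 4263 and 2553 CPM among interface mutant ones; IDR mutant replicate 3 and interface mutant replicate 1, the libraries with the high scores above, held its highest values. Its differences from wild type were 1.10 ± 0.83 (IDR mutant) and 1.20 ± 0.89 (interface mutant; edgeR adjusted p = 0.859 and 0.962). Leaving out IDR mutant replicates 1 and 2 and interface mutant replicate 1, a choice made after seeing the data, gave a JEN1 difference of 2.22 for the IDR mutant. That fit kept a single IDR mutant library, replicate 3, the one with the highest JEN1 level, so the size of the value reflects that choice. All IDR mutant libraries were below both of wild type for FBP1 and MLS1, where 29.1% of all genes were (4.06% above), and JEN1 was higher in both interface mutant libraries, where 4.67% of all genes were (41.4% lower).

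Nuclear extracts were compared with whole cells of the same starved strain in a joint fit of 5944 genes. The file headers name other sequencing runs for the nuclear than for the whole cell libraries, so fraction and run cannot be told apart, and the levels compared are shares of the counts of each fraction. In wild type 6 of the 10 genes were higher in the nuclear extract, against 17.0% of all genes, and 0 were lower, against 14.0%; the median difference of the 10 was 1.40 on the log2 scale, beside 0.02 for all genes. ACS1 was at 629 and 1228 CPM in the nuclear and 120.4 and 121 CPM in the whole cell libraries, a difference of 2.74 ± 0.56 (edgeR adjusted p = 0.00576). ADY2 was at 1969 and 2982 CPM against 611 and 604, a difference of 1.82 ± 0.38 (edgeR adjusted p = 0.00647).

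ICL1 was at 524 and 613 CPM in the nuclear libraries against 139 and 150.1 in whole cells, a difference of 1.76 ± 0.30 (edgeR adjusted p = 0.00287). PCK1, MLS1 and SFC1 differed by 1.46 ± 0.39, 1.46 ± 0.27 and 1.33 ± 0.43 (edgeR adjusted p = 0.0175, 0.0041 and 0.0366). All 10 genes had both nuclear libraries above both whole cell ones in CPM, where 50.6% of all genes did and 24.4% were below. MDH2, at 269 and 257 CPM against 242 and 251, was the nearest to equal after the scaling of the fit (-0.12 ± 0.25, edgeR adjusted p = 0.738), and FBP1 (0.37 ± 0.29), CIT2 (1.02 ± 0.47) and JEN1 (1.13 ± 0.70) did not pass either (edgeR adjusted p = 0.346, 0.116 and 0.235). Without whole cell replicate 1 or 2 or nuclear replicate 2 fewer of the 10 passed, and fewer of all genes, and each such fit leaves a single library in a group.

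In the IDR mutant the nuclear extract was lower than whole cells for PCK1 and FBP1, against 4.98% of all genes, and higher for none of the 10, against 4.63%. PCK1 was at 169, 152 and 284 CPM in the nuclear libraries and 397 and 438 CPM in whole cells, a difference of -1.22 ± 0.34 (edgeR adjusted p = 0.0465), and FBP1 at 23.5, 20.3 and 30.1 against 43.4 and 58.2, a difference of -1.23 ± 0.26 (edgeR adjusted p = 0.0189). All nuclear libraries lay below both whole cell ones for PCK1, FBP1, MLS1, MDH2 and SFC1, where 12.9% of all genes did, and above for 0 of the 10, against 33.3%. The count was 6 without nuclear replicate 3 and 0 without nuclear replicate 1 or 2. Both calls were also lost without either whole cell library, which leaves a single one, and the number among all genes ranged widely too. Leaving out nuclear replicates 1 and 2 together, a choice made after seeing the data, keeps only the nuclear library with the highest JEN1 level. In that fit the calls of PCK1 and FBP1 did not hold.

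In the interface mutant genes passed in both directions. ICL1 was at 446 and 772 CPM in the nuclear libraries and 284 and 328 CPM in whole cells and passed as higher (0.92 ± 0.30, edgeR adjusted p = 0.033), as did ACS1, at 875 and 1081 CPM against 209.8 and 369 (1.71 ± 0.54, edgeR adjusted p = 0.0312), against 17.3% of all genes. FBP1 was lower, at 33.5 and 46.7 CPM against 61.4 and 88.4 (-0.96 ± 0.28, edgeR adjusted p = 0.0224), against 17.0% of all genes. PCK1, ICL1, CIT2, ACS1, ADY2 and JEN1 were higher and FBP1 lower without overlap, where 35.2% of all genes were higher and 29.3% lower. Fewer of the 10 genes, and fewer of all genes, were called when any single library was left out, which leaves 1 library in a group.

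**Figure D5:**
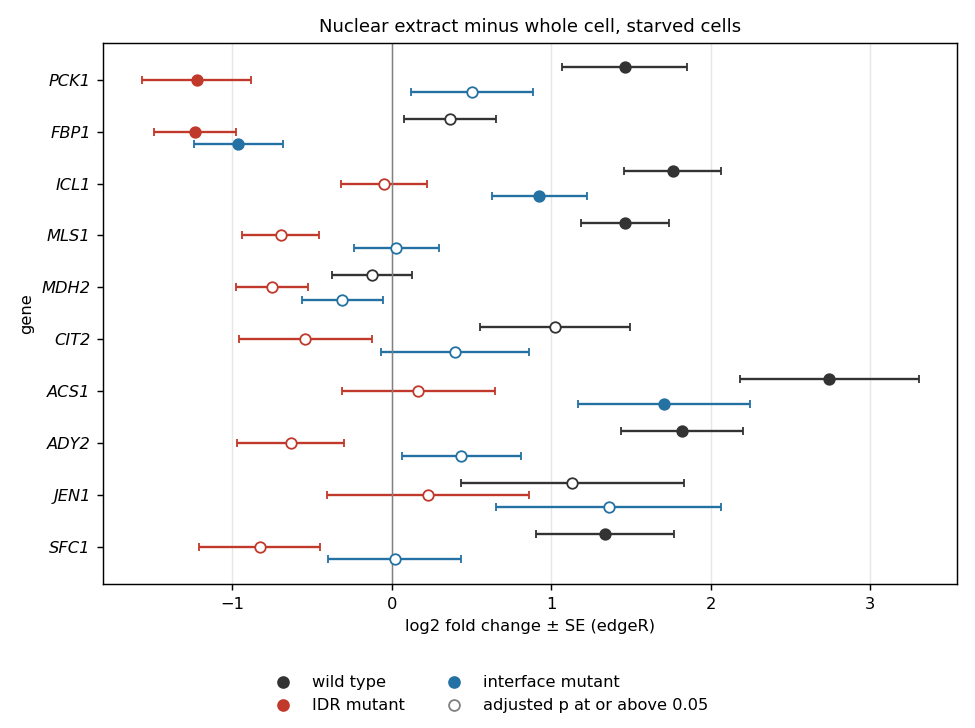
Log2 difference of each gene between nuclear extract and whole cells of starved cultures (x axis), by strain, with the SE of edgeR's fit as bars and open symbols where the adjusted p is at or above 0.05. Wild type lies to the right of both mutants for every gene but JEN1, with 6 filled symbols; the IDR mutant has 2 filled symbols, PCK1 and FBP1, both below 0.

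Whether the difference between nuclear extract and whole cells itself differed between strains was tested directly. It compares shares of counts in fractions sequenced in different runs and does not measure how RNA is divided between nucleus and cytoplasm. Against wild type, the nuclear level relative to the whole cell level was lower in the IDR mutant for PCK1 (-2.68 ± 0.52, edgeR adjusted p = 0.0414), MLS1 (-2.16 ± 0.36, edgeR adjusted p = 0.0387) and ADY2 (-2.45 ± 0.50, edgeR adjusted p = 0.0457), against 1.09% of all genes. It was higher for 0 of the 10, against 0.303%. The estimates of the other 7 genes were also negative, from -2.57 for ACS1 to -0.63 for MDH2. The nuclear libraries of these strains differed by 0.00 for PCK1, -0.39 for MLS1 and 0.01 for ADY2, none passing, and the whole cell libraries by 2.63, 1.72 and 2.42, all higher in the mutant. The count was 10 without nuclear IDR mutant replicate 3 and 0 without nuclear IDR mutant replicate 1 or 2. Leaving out any other library leaves a single one in a group. More of the 10 genes passed without nuclear wild type replicate 1, and the calls were lost without each of the rest. They were also lost without nuclear IDR mutant replicates 1 and 2 and interface mutant replicate 1, left out after seeing the data, which leaves single libraries. The number among all genes ranged widely too.

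For the interface mutant 0 of the 10 genes and 0.0% of all genes passed in edgeR, with 4 of the 10 and 177 genes at an unadjusted p under 0.05 and 0 genes called by DESeq2. The estimate for MLS1 was -1.43 ± 0.38 and that for FBP1 -1.33 ± 0.40 (edgeR adjusted p = 1 for both).

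Of 11 regulators of these genes, 7 rose and 1 fell in starved wild type, against 31.7% and 34.5% of all genes. CAT8, the zinc cluster activator of gluconeogenic genes, went from 2.13 and 3.38 CPM to 106 and 101 CPM, a rise of 5.23 ± 0.24 on the log2 scale (edgeR adjusted p = 3.45e-07). SIP4, a second activator that binds the carbon source-responsive element, ADR1, the activator of ethanol and fatty acid use, and HAP4, the activating subunit of the respiratory HAP complex, rose by 4.46 ± 0.32, 3.81 ± 0.34 and 3.39 ± 0.13 (edgeR adjusted p = 3.61e-06, 1.39e-05 and 1.5e-07). The repressors MIG1 and MIG2 rose by 2.21 ± 0.27 and 0.68 ± 0.20, and REG1, a phosphatase subunit that opposes Snf1, by 1.25 ± 0.23 (edgeR adjusted p = 9.8e-05, 0.0126 and 0.00117). SNF4, the gamma subunit of the Snf1 complex, fell (-1.80 ± 0.32, edgeR adjusted p = 0.000881), and SNF1 (0.44), RDS2 (-0.23) and ERT1 (0.49), the kinase and 2 further zinc cluster regulators, did not pass.

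In starved IDR mutant cells 3 regulators were above wild type, against 15.9% of all genes. CAT8 was at 207 and 194 CPM against 106 and 101, a difference of 1.13 ± 0.19, and SIP4 and ADR1 differed by 1.23 ± 0.24 and 1.34 ± 0.30 (edgeR adjusted p = 0.00286, 0.00503 and 0.0103). In the starved interface mutant CAT8 stood at 139 and 172 CPM, and its difference from wild type of 0.69 ± 0.19 did not pass (edgeR adjusted p = 0.175). CAT8 was also the regulator whose starvation response was larger in the IDR mutant, compared with wild type (1.74 ± 0.33, edgeR adjusted p = 0.0132), and it was higher in nuclear extracts than in whole cells of wild type (1.98 ± 0.40, edgeR adjusted p = 0.00567).

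Other genes of the pathway were taken in groups by their role. Of 9 isoenzymes and close relatives, 7 rose and 1 fell in starved wild type, against 31.7% and 34.5% of all genes. Their median log2 fold change was 1.06: ATO2, a relative of ADY2, rose by 5.57 ± 0.31, and CIT1 and CIT3, the mitochondrial citrate synthases, by 1.59 ± 0.13 and 2.76 ± 0.23 (edgeR adjusted p = 7.91e-07, 7.06e-06 and 9.77e-06). Of 12 genes around acetyl-CoA, NADPH and oxaloacetate, 11 rose and 1 fell, against the same shares of all genes, with a median of 2.39. Among them CRC1, the mitochondrial carnitine carrier, rose by 3.97 ± 0.23, CAT2, carnitine acetyltransferase, by 3.42 ± 0.22, and ALD6, cytosolic aldehyde dehydrogenase, by 2.66 ± 0.17 (edgeR adjusted p = 1.07e-06, 1.95e-06 and 1.95e-06). In the starved IDR mutant 9 of these 12 were above wild type and 0 below, against 15.9% and 13.3% of all genes. For the starved interface mutant it was 3 and 0, against 0.41% and 0.0683%.

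The enzymes that work in both directions of the pathway went both ways in starved wild type, as all genes did (31.7% rose and 34.5% fell). Of 10, 5 rose and 2 fell in starved wild type, with a median of 0.27: TDH1, a minor glyceraldehyde-3-phosphate dehydrogenase, rose by 5.15 ± 0.19, ENO1, an enolase, rose by 2.40 ± 0.15, and FBA1, aldolase, fell (-0.77 ± 0.14; edgeR adjusted p = 1.26e-07, 1.88e-06 and 0.00111). In wild type nuclear extracts 8 of these 10 enzymes were lower than in whole cells and 0 higher, against 14.0% and 17.0% of all genes. Their median was -1.33, where 6 of the 10 genes described here were higher. All 7 genes of the opposing steps of glycolysis and their control rose in starved wild type, PFK26 by 1.70 ± 0.14, PYK2 by 1.97 ± 0.20 and PFK2 by 1.75 ± 0.27 (edgeR adjusted p = 7.79e-06, 2.81e-05 and 0.00035). In the starved IDR mutant 2 of the 7 were below wild type and 0 above, against 13.3% and 15.9% of all genes.

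The GID ubiquitin ligase, which destroys gluconeogenic enzymes when glucose returns, had 9 of 10 genes higher in starved than in unstressed wild type, and 9 in each mutant. Of all genes, 31.7% (wild type), 33.0% (IDR mutant) and 29.7% (interface mutant) were higher. GID11, a substrate receptor, rose by 3.91 ± 0.16, and VID30 and GID8, core subunits, by 2.24 ± 0.14 and 2.14 ± 0.14 (edgeR adjusted p = 1.79e-07, 1.99e-06 and 1.99e-06). In the starved IDR mutant GID11 exceeded its wild type level (1.36 ± 0.15, edgeR adjusted p = 0.000428).

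Among genes other than the 10, those most like the mean profile of the 10 were found by the root mean square difference of centred mean log2(CPM + 1) over the 6 whole cell groups, among 5400 genes with at least 10 CPM in the mean of some group. The nearest was PRR2, a protein kinase gene, at a distance of 0.133, which averaged 3.93 ± 3.1 CPM (SD, n = 2) in unstressed and 53.8 ± 0.619 CPM in starved wild type, and 195 ± 1.56 and 116 ± 39.3 CPM in the starved IDR and interface mutants. YMR206W (0.213), FOX2, a peroxisomal beta-oxidation enzyme (0.227), CRC1 (0.229) and YOR019W (0.239) followed. Singly, CIT2 was nearest to AGX1, an alanine-glyoxylate aminotransferase (0.0823), MDH2 to VHS2 (0.0936), ACS1 to PRR2 (0.131), JEN1 to ISF1 (0.142) and ICL1 to NDE2, an external mitochondrial NADH dehydrogenase (0.191). SFC1 was nearest to SPS19, a peroxisomal enzyme of beta-oxidation (0.202), PCK1 to PUT1, proline oxidase (0.204), FBP1 to MPC3, a subunit of the mitochondrial pyruvate carrier (0.237), MLS1 to YCT1, a cysteine transporter (0.302), and ADY2 to SPG4 (0.337). These distances describe 6 group means and carry no test.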

How the data were processed

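Oligo(dT) of 25 nt was used to select poly(A) RNA, which was made into strand-specific libraries, per the labels' protocols. Nuclear extracts came from spheroplasts separated on Ficoll and a sucrose gradient after douncing. The deposited values are whole-number counts per gene made by the authors with featureCounts 2.0.1, per the file headers, which record strand-specific counting over whole genes with fractional counting of multi-mapped reads; the 10 genes share no 30-base stretch with the rest of the genome and overlap no other feature. The headers of the 12 whole cell files name annotation R64-2-1, and those of the nuclear files an annotation with spike-ins. Reads were trimmed with cutadapt and aligned with TopHat2, per the submitters' processing notes, with versions not given in the sources used here.

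Spike-in counts were left out, and CPM was computed over the 6600 yeast features. Tests used edgeR 4.0.16 in R 4.3.3 (quasi-likelihood F test, TMM, filterByExpr, Benjamini-Hochberg adjustment, threshold 0.05) with group as the single term: 1 fit of 12 whole cell libraries (5853 genes), 1 of 7 nuclear libraries (6086 genes) and 1 of 6 starved whole cell and 7 nuclear libraries (5944 genes). All 10 genes passed the filter in each. The SE is the size of the log2 fold change divided by the square root of F. Nuclear libraries under 0.2 of the median nuclear depth were left out. Shares of genes without overlap are over genes with at least 10 counts in the groups compared. The edgeR fits were tested on simulated counts with known changes for some of the comparisons, and the alternatives and other steps were not. The simulated counts had the same dispersion for every gene and no library that stood apart, so they do not cover the spread seen between some replicates here. Alternatives were DESeq2 1.42.0, RLE size factors, no filter, a replicate block, the compared groups alone, all nuclear libraries and leaving out libraries. Precision is limited by 2 or 3 libraries per group. Of the 6600 features, 5917 matched the reference annotation, 5869 of them at the same position, and 5866 gave a promoter.

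The 10 genes, the pathway lists and the tests were chosen with earlier results of these data known. Named besides the 10 genes are NAB2, every regulator, up to 3 genes of each list, those with the lowest adjusted p for starvation of wild type, and the genes nearest in profile.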

Additional observations from a re-analysis of the deposited data

Results flagged for a closer look

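The starvation response of the IDR mutant differed from that of wild type for 8 of the 10 genes by the test of the difference itself (the interaction term in edgeR). On the log2 scale the difference was 2.66 for PCK1, 1.20 for ICL1, 3.51 for MLS1, 2.91 for CIT2, 2.16 for ACS1, 2.33 for ADY2, 2.59 for JEN1 and 1.90 for SFC1, each larger in the mutant. Among all genes 6.24% passed as larger and 5.5% as smaller. Most calls of the 10 genes were lost without any one of 5 of the 8 libraries compared, and the number among all genes ranged widely too. For the interface mutant the same test passed for ADY2 alone, at 2.50 (0.0171% of all genes), and for 0 genes without any one of 5 of the 8 libraries compared. The difference between nuclear extract and whole cells differed between the IDR mutant and wild type, by the same kind of test, for PCK1 (-2.68), MLS1 (-2.16) and ADY2 (-2.45), each lower in the mutant. Among all genes 1.09% passed as lower. The calls of PCK1, MLS1 and ADY2 were lost without any one of 7 of the 9 libraries compared, and the number among all genes ranged widely too.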

How the results depend on the processing

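No direction of a called value reversed in any alternative. RLE size factors and no filter on low counts moved no count of calls by over 1.5 times. Fits of only the groups compared called 2473 genes for starvation of wild type, 248 for the response of the IDR mutant, 0 for that of the interface mutant (0 of the 10 genes), 0 for the unstressed IDR mutant (0 of the 10), 3575 and 46 for the starved IDR and interface mutants against wild type, 766 for nuclear against whole cell interface mutant (1 of the 10), and 226 for the fraction difference of the IDR mutant (5 of the 10). For nuclear against whole cell IDR mutant they called 1 of the 10, where the main fit called 4.63% of all genes higher and 4.98% lower. DESeq2 called 1192 genes for the response of the IDR mutant, 156 for the interface mutant (9 of the 10), 1352 and 100 in the unstressed IDR and interface mutants (1 of the 10 in the latter), 225 in the starved interface mutant (9), 12 and 14 in nuclear extracts, 1026 for nuclear against whole cell IDR mutant, and 635 for its fraction difference (7). Without nuclear IDR mutant replicates 1 and 2 and interface mutant replicate 1, chosen after seeing the data, nuclear extracts differed in 320 genes (1 of the 10, JEN1) and 2 genes for the IDR and interface mutants, nuclear against whole cells in 1 of the 10 for the IDR mutant, and its fraction difference in 27 genes (0 of the 10). With all nuclear libraries the counts were 1 and 1 gene in nuclear extracts and 159 genes for the fraction difference of the IDR mutant. Nuclear against whole cells then called 1 of the 10 in each mutant. The main fit called 4.63% of all genes higher and 4.98% lower for the IDR mutant, and 17.3% and 17.0% for the interface mutant.

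With the replicate block, nuclear extracts differed in 4 and 2 genes for the IDR and interface mutants, and the fraction difference of the IDR mutant in 1521 genes (10 of the 10). Nuclear against whole cells differed in 5 of the 10 for the IDR mutant, where the main fit called 4.63% of all genes higher and 4.98% lower. The block moved no other count by over 1.5 times, that of all genes in this comparison included. The labels give no pairing by number: same-numbered deviations correlated above 0.1 in 3 of 15 whole cell pairs of groups (-0.60 to 0.37) and 4 of 6 nuclear ones (-0.32 to 0.66).

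Leaving out 1 library gave, for the 10 genes and for all genes, 9 to 10 and 3136 to 4555 for starvation of wild type, 10 and 3235 to 3324 for the IDR mutant, and 10 and 2690 to 3188 for the interface mutant. The responses gave 2 to 9 and 32 to 3209 (IDR) and 0 to 9 and 0 to 3274 (interface). Unstressed mutants gave 0 to 6 and 0 to 3807 (IDR) and 0 to 8 and 0 to 3655 (interface). Starved mutants gave 7 to 9 and 796 to 991 (IDR), 0 to 7 and 0 to 288 (interface), and 0 to 2 and 207 to 836 between both. Nuclear extracts gave 0 throughout. Nuclear against whole cells gave 1 to 6 and 500 to 1608 (wild type), 0 to 6 and 2 to 1071 (IDR), and 0 to 1 and 1100 to 1711 (interface), and the fraction differences 0 to 10 and 0 to 1134 (IDR) and 0 and 0 to 55 (interface). Where a group was left with 1 library, it is assumed to vary like the others. A floor of 3 counts, or 0.623 CPM in the shallowest whole cell library, was chosen, and a level below it cannot be told from 0. LYS2, deleted in the parent, reached 5 counts, so levels just above the floor cannot be told from 0 either.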
